A study of Homo sapiens with 10 samples.

Results

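The aminoacyl-tRNA synthetases, together with the scaffold proteins that bind several of them, were followed as 39 genes in the polyadenylated RNA of HEK293T cells, an established line of human embryonic kidney origin. The genes were picked by name from the 78894 genes of the table, with earlier results of these data known. All 39 were found and passed the filter on low values. They comprised 19 cytosolic enzymes or enzyme subunits, 16 mitochondrial enzymes, TARS3, a second threonyl-tRNA synthetase, and 3 scaffold proteins of the multisynthetase complex, AIMP1, AIMP2 and EEF1E1. The cells had been kept for 24 h in cysteine-free media (0X, 2 libraries), in complete media (1X, 4 libraries) or in media with 10-fold excess cysteine (10X, 4 libraries). The labels name no edited gene and no drug in any of these groups. By the labels the groups thus differed in the cysteine of the medium. A starvation protocol in the study's methods also gave starved cells dialyzed serum and a different medium base. Whether it served these libraries cannot be told from the sources used here. All libraries came from this single cell line, whose response need not be that of kidney tissue. The labels call the libraries of a medium biological replicates and name no batch, and nothing ties them to separate passages, so p-values measure the spread between these libraries.

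An aminoacyl-tRNA synthetase joins an amino acid to its own tRNA, the step that sets which amino acid a codon is read as. Human cells carry separate nuclear genes for many of the cytosolic and mitochondrial enzymes, whose symbols end in 1 and 2, and both kinds of mRNA are made from the nuclear genome. GARS1 and KARS1 make the enzymes of both compartments, EPRS1 joins the glutamyl- and prolyl-tRNA synthetases in one chain, and FARSA and FARSB are the subunits of the cytosolic phenylalanyl-tRNA synthetase. Uncharged tRNA activates the kinase GCN2, after which translation of the transcription factor ATF4 rises. Many cytosolic synthetase genes are known targets of ATF4, which binds composite C/EBP-ATF elements.

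The libraries held 34836014 to 61654861 reads on genes, and a member had between 179 and 39863 reads in a library, the lowest being FARS2. Whether both reads of a pair were counted is not given in the sources used here. Of the 5 genes chosen as HEK293T markers, VIM, NEFM, KRT8, KRT18 and PAX2 were all detected in every library, while 10 liver and T cell markers stood at 21 normalized counts or fewer. Reads on genes of the mitochondrial genome took 4.71% ± 0.250 (SD, n = 4) of all reads in complete, 5.43% ± 0.397 (SD, n = 2) in cysteine-free and 0.129% ± 0.0129 (SD, n = 4) in excess cysteine media. This fall of mitochondrial transcripts in excess cysteine is a feature of those libraries as a whole. It is given here because most mitochondrial enzymes also fell in those libraries, as described below, and a link between these falls was not tested. In cysteine-free media the share was not lower.

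Promoter sequences of the members were searched for elements bound by stress and mitochondrial regulators. RefSeq promoters (GRCh38.p14, 250 bases before to 50 after a start) were at hand for 33 of the 39 members. The 8-base motif TGATGCAA, a strict form of the C/EBP-ATF response element searched on both strands, lay in 6 of 16 cytosolic promoters, those of AARS1, CARS1, IARS1, MARS1, NARS1 and TARS1, in 0 of 14 mitochondrial and in 0 of 3 scaffold promoters. Of all 35116 RefSeq promoters 0.866% held it, or 1.08% of 27305 genes with at least 1 such promoter. These 6 stretches are shown because they carry that motif, with 10 bases on either side and the motif in capitals. The first 5 hold it as its reverse complement, and the sixth in the forward orientation.
CARS1 (chr11:3057408-3057435, minus strand): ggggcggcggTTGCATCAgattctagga
TARS1 (chr5:33440957-33440984, plus strand): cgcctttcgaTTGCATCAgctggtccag
IARS1 (chr9:92293693-92293720, minus strand): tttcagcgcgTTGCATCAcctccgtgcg
MARS1 (chr12:57488054-57488081, plus strand): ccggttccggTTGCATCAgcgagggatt
AARS1 (chr16:70289676-70289703, minus strand): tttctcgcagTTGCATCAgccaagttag
NARS1 (chr18:57621805-57621832, minus strand): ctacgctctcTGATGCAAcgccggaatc

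In CARS1, TARS1, IARS1 and MARS1 the motif began within 13 bases of the RefSeq start, at -2, 3, -13 and -4, where that of NARS1 began at 15 and that of AARS1 at -187. The looser form TGATGNAAN, which overlaps the strict one, added GARS1 among the cytosolic genes, for 7 of 16, and YARS2 among the mitochondrial ones, for 1 of 14. It was present in 3.61% of all promoters and 4.45% of genes. GCGCATGC, the core of the palindrome bound by nuclear respiratory factor 1, a regulator of mitochondrial genes, lay in the promoters of MARS2 and YARS2 and of no other member with a promoter here, against 3.68% of genes. A match of letters is a description and no evidence of binding.

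In complete media the cytosolic enzymes were the more abundant. Per length of the canonical transcript, the level in TPM (reads divided by transcript length, scaled to the same total in each library, computed here) had a median of 135 over the 19 cytosolic members, 24.7 over the 16 mitochondrial members and 78.1 over the 3 scaffold genes. YARS1, the tyrosyl enzyme, stood highest at 266 ± 12.3 TPM (SD, n = 4), followed by IARS1 at 213 ± 5.11. CARS1 was near the lower end of the cytosolic genes at 49.7 ± 1.83, and CARS2 lay close to it at 43.8 ± 1.42, the closest to equal of the 13 pairs by this measure. IARS2, the mitochondrial isoleucyl enzyme, was the one mitochondrial member among the abundant ones, at 115 ± 2.94, and FARS2 was the lowest of all at 8.38 ± 0.579. Of the 19 cytosolic members, 18 exceeded every mitochondrial member other than IARS2. The exception was FARSB at 19.7 ± 0.779, although its partner subunit FARSA stood at 156 ± 5.07. All 13 pairs with a cytosolic and a mitochondrial gene had the higher level in the cytosol by this measure, and 11 of 13 when lengths were taken over all annotated exons. The ranges of neighbours in this order overlapped for 25 of 38 neighbouring pairs, and the order also rests on the length used. Over all annotated exons YARS1 stood at 99.9 TPM and rank 9, IARS1 went from rank 2 to 14, GARS1 from 5 to 20 and HARS1 from 17 to 34, and EPRS1 was highest at 205.

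**Figure D1:**
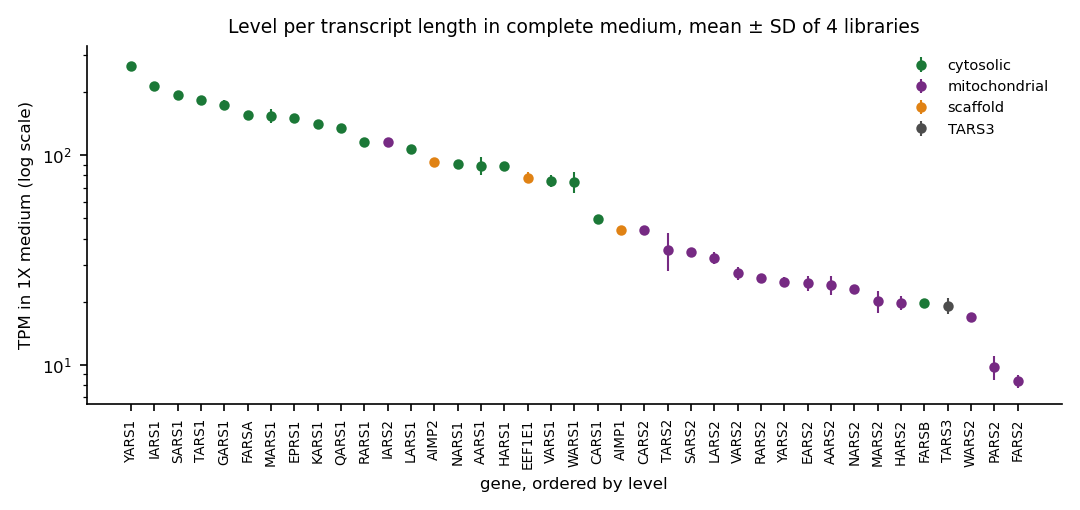
Level of each of the 39 members in complete media in TPM on a log axis, ordered from high to low (points, mean of 4 libraries, bars, SD), with colours for cytosolic, mitochondrial and scaffold genes and TARS3. Cytosolic genes fill the upper end from YARS1 at 266 TPM, IARS2 at 115 is the one mitochondrial gene among them, and FARSB at 19.7 lies among the mitochondrial genes.

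In cysteine-free media a set of cytosolic synthetase mRNAs rose, among them GARS1, which makes the enzyme of both compartments. No member of the mitochondrial set was called higher at an adjusted p of 0.01, a result that depended on the fit. Between cysteine-free and complete media, 11 of 19 cytosolic members rose, 2 fell and 6 did not pass the test, with a median log2 fold change of 0.39. Of the 16 mitochondrial members 0 rose, 4 fell and 12 did not pass, with a median of -0.037. TARS3 fell, as did EEF1E1 among the 3 scaffold genes. Calls were made with limma over 29045 genes at a Benjamini-Hochberg adjusted p of 0.01, and over all these genes 15.9% were called, 7.39% as higher and 8.51% as lower, with a median of 0.0024. Expression matters for this background, since 27.3% of the 13709 genes with a mean at least that of the lowest member were called, against 19 of the 39 members. At an adjusted p of 0.05, 3 mitochondrial enzymes, FARS2, TARS2 and VARS2, would also count as higher, and edgeR and DESeq2 on the recovered reads called 1 at 0.01, VARS2. Without the filter on low values, which leaves 78894 genes in the fit, the calls shrank to 390 genes in all, and the cytosolic ones to 1 higher and 0 lower, the 1 being CARS1.

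WARS1, the tryptophanyl enzyme, which is also known as an interferon-induced gene, had the largest change of all members between cysteine-free and complete media. It had 9223 and 10036 normalized counts in cysteine-free media against 4935, 4341, 5341 and 4075 in complete media and 8386, 8971, 9009 and 9014 in excess cysteine. Both altered media lay above all complete libraries. The log2 fold change was 1.05 ± 0.089 (SE) in cysteine-free media (limma adjusted p = 3.6e-06) and 0.93 ± 0.065 in excess cysteine (adjusted p = 2.8e-09).

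GARS1, the glycyl enzyme of both compartments, gave 18081 and 19760 in cysteine-free, 10362, 9843, 10682 and 9316 in complete, and 17846, 18709, 18325 and 18808 in excess media. The cysteine-free and excess libraries overlapped each other and lay above all complete ones. Its log2 fold changes were 0.91 ± 0.060 (adjusted p = 4.3e-07) and 0.88 ± 0.042 (adjusted p = 2.3e-11), and the direct comparison of both altered media gave 0.037 ± 0.038 (adjusted p = 0.42).

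CARS1, the cytosolic enzyme that charges tRNA with cysteine itself, had 5133 and 5384 in cysteine-free, 3388, 3088, 3139 and 3299 in complete, and 5915, 6118, 6006 and 6362 in excess media. Its counts were thus lowest in complete media and highest in excess cysteine, with no overlap between any of these groups. The log2 fold change was 0.70 ± 0.059 in cysteine-free media (adjusted p = 3.5e-06), or 1.63-fold, and 0.92 ± 0.043 in excess cysteine (adjusted p = 1.9e-11), or 1.89-fold. Between cysteine-free and excess media it was -0.21 ± 0.042 (adjusted p = 9.8e-05).

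CARS2, its mitochondrial counterpart, had 1746 and 1780 in cysteine-free, 1875, 1893, 1950 and 1928 in complete, and 1165, 1075, 1253 and 1127 in excess media. The cysteine-free libraries lay just under the complete ones and the excess libraries far under both. The difference between cysteine-free and complete media did not pass the test (-0.12 ± 0.062, adjusted p = 0.18), while in excess cysteine the mRNA fell to 60.3% of its level in complete media (-0.73 ± 0.054, adjusted p = 5.8e-09). The ratio of CARS1 to CARS2 counts was 1.69 ± 0.0895 (SD, n = 4) in complete, 2.98 ± 0.0602 (SD, n = 2) in cysteine-free and 5.30 ± 0.440 (SD, n = 4) in excess media, with no overlap between groups. The log2 ratio rose by 0.82 in cysteine-free media (exact permutation test over libraries, 2-sided, p = 0.067, the smallest that 2 against 4 libraries can give) and by 1.65 in excess cysteine (p = 0.029 by the same exact test, the smallest that 4 against 4 can give).

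**Figure D2:**
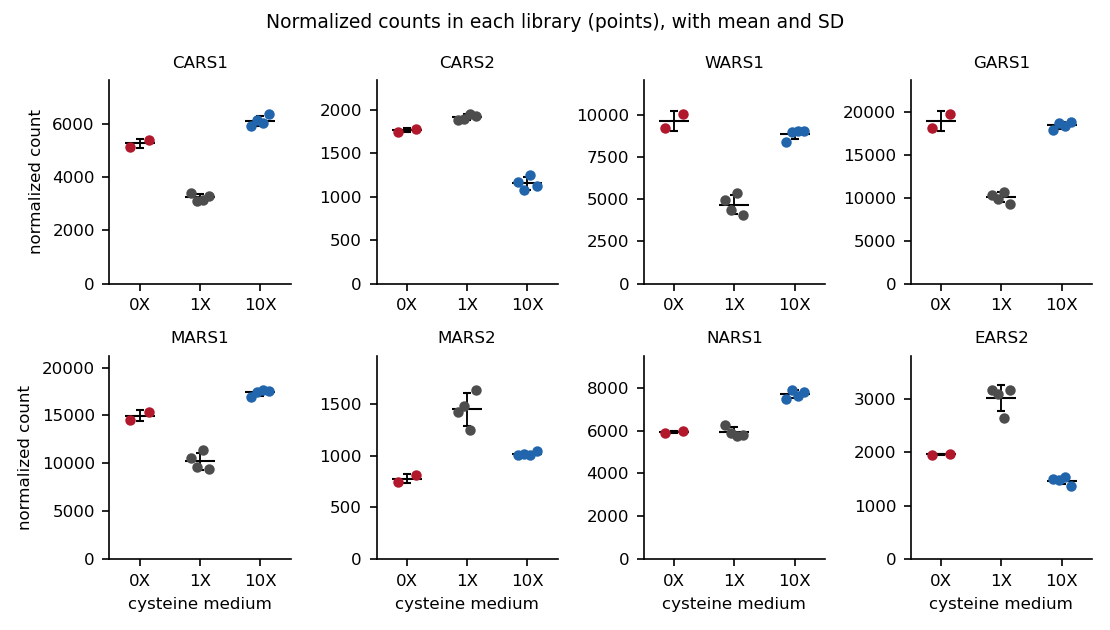
Normalized counts of CARS1, CARS2, WARS1, GARS1, MARS1, MARS2, NARS1 and EARS2 in each library (points) by cysteine medium (0X, 1X, 10X), with the mean (horizontal line) and SD (bars), each panel on its own linear axis from 0. CARS1, WARS1, GARS1 and MARS1 are lowest in complete media, MARS2 and EARS2 are highest there, and NARS1 is raised in excess cysteine alone.

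The other cytosolic enzymes that rose in cysteine-free media were AARS1 and YARS1, which both gained more than 0.6 on the log2 scale (0.70 and 0.69), SARS1 at 0.58, IARS1 at 0.57, MARS1 at 0.55, LARS1 at 0.44, EPRS1 at 0.39 and TARS1 at 0.25. Their adjusted p-values ran from 3.0e-06 for YARS1 to 0.0032 for TARS1. TARS1, the threonyl enzyme, is the weakest of these calls and was lost without either cysteine-free library, without the second complete library (adjusted p = 0.015) and when the replicate number was added as a block (0.21, adjusted p = 0.011).

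A smaller set of cytosolic enzymes did not follow. RARS1, the arginyl enzyme, gave 4466 and 4550 in cysteine-free media, under 6153, 5922, 5556 and 5596 in complete media. It fell by 0.36 on the log2 scale (SE 0.057, adjusted p = 0.00044). HARS1, the histidyl enzyme, fell by 0.27 (SE 0.060, adjusted p = 0.0044), a call lost under quantile normalization (-0.21, adjusted p = 0.013) and without the first or second complete library. FARSA (-0.17), FARSB (0.0090), KARS1 (-0.078), NARS1 (0.0050), QARS1 (0.077) and VARS1 (-0.20) did not pass the test. With 1 cysteine-free library left out, the calls of HARS1, RARS1, TARS1, LARS2, YARS2, TARS3 and EEF1E1 were lost, with either library, while the remaining 12 member calls held.

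MARS2, the mitochondrial methionyl enzyme, made from a gene with a single exon, had the largest fall of all members in cysteine-free media. It had 747 and 809 normalized counts there against 1423, 1477, 1247 and 1638 in complete and 1008, 1010, 1004 and 1043 in excess media. The excess libraries lay between the others, and the 3 groups did not overlap. The mRNA fell to 54.0% of its level in complete media (-0.89 ± 0.097, adjusted p = 2.8e-05), and to 70.6% in excess cysteine (-0.50 ± 0.070, adjusted p = 9.3e-06). MARS2 was the one mitochondrial enzyme called lower in cysteine-free than in excess media (-0.39 ± 0.063, adjusted p = 1.0e-05). Its cytosolic counterpart MARS1 moved the other way, with 14556 and 15373 in cysteine-free, 10547, 9611, 11343 and 9425 in complete and 16939, 17441, 17707 and 17577 in excess media.

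EARS2, the mitochondrial glutamyl enzyme, gave 1959 and 1970 in cysteine-free, 3164, 3095, 2653 and 3179 in complete and 1496, 1478, 1542 and 1371 in excess media. It fell by 0.62 on the log2 scale in cysteine-free media (SE 0.076, adjusted p = 6.8e-05) and by 1.04 in excess cysteine (SE 0.060, adjusted p = 2.75e-10). YARS2, the tyrosyl enzyme, had 928 and 887 in cysteine-free, 1360, 1177, 1288 and 1176 in complete and 924, 916, 916 and 891 in excess media, a fall of nearly the same size in each (-0.46 and -0.45). LARS2, the leucyl enzyme, had 2831 and 2909 in cysteine-free, 3847, 3511, 3970 and 3402 in complete and 1563, 1646, 1711 and 1755 in excess media, and fell by 0.36 (SE 0.069, adjusted p = 0.0018) and then by 1.14 (SE 0.056, adjusted p = 3.5e-11). These 4 enzymes were the ones that fell in both media.

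Excess cysteine, read against the same complete libraries, raised most cytosolic and lowered most mitochondrial synthetase mRNAs. Of the 19 cytosolic members 12 rose, 5 fell and 2 did not pass, with a median of 0.36, and of the 16 mitochondrial members 0 rose, 12 fell and 4 did not pass, with a median of -0.42. Far more genes were called here than in cysteine-free media, 46.0% of all genes tested (23.1% higher and 22.9% lower). Of those at least as high as the lowest member 66.1% were called, so that 32 of 39 called members is to be read against a high background. Excess media had 4 libraries and cysteine-free media 2, so the numbers of calls in the 2 comparisons are not like for like. The median over all genes was 0.014. When libraries were scaled to equal totals in place of the deposited size factors, the median of all genes shifted to 0.12 and the split of called genes from 6721 higher and 6651 lower to 8409 higher and 5197 lower. The members then had medians of 0.46 (cytosolic) and -0.32 (mitochondrial), with 12 cytosolic calls higher and 11 mitochondrial calls lower, WARS2 being the one lost.

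The 11 cytosolic enzymes that rose in cysteine-free media also rose in excess cysteine. Besides WARS1, CARS1 and GARS1, MARS1 reached 0.77, SARS1 0.64, YARS1 0.59, AARS1 0.58, TARS1 0.55, LARS1 0.36, EPRS1 0.29 and IARS1 0.23. Both comparisons share the 4 complete libraries, so that the match of their signs is no independent evidence. NARS1, the asparaginyl enzyme, joined them in excess cysteine alone, with 7464, 7917, 7635 and 7806 against 6260, 5872, 5744 and 5791 in complete and 5900 and 5968 in cysteine-free media. Cysteine-free and complete libraries overlapped. The difference between cysteine-free and excess media passed its own test (-0.38 ± 0.039, adjusted p = 8.3e-09).

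VARS1, the valyl enzyme, had the largest fall among the cytosolic genes, with 4203, 4522, 4638 and 4462 in excess cysteine against 7634, 7086, 7932 and 6684 in complete and 6140 and 6649 in cysteine-free media. That is a log2 fold change of -0.72 ± 0.052 (adjusted p = 3.6e-09). The subunits FARSB (-0.49) and FARSA (-0.32), RARS1 (-0.41) and KARS1 (-0.35) also fell. HARS1 and QARS1, at -0.12 each, did not pass (adjusted p = 0.022 and 0.012), and DESeq2 called QARS1.

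Among mitochondrial enzymes the largest falls in excess cysteine were those of LARS2, EARS2 and IARS2. IARS2, with the highest level of the mitochondrial set, had 4771, 4982, 4926 and 4870 in excess cysteine against 9963, 9768, 9704 and 9121 in complete and 8990 and 8948 in cysteine-free media. It was thus at 50.7% of its level in complete media (-0.98 ± 0.039, adjusted p = 2.0e-12), and its fall in cysteine-free media did not pass (-0.10, adjusted p = 0.15). FARS2 (-0.80), CARS2 (-0.73), SARS2 (-0.61), MARS2 (-0.50), YARS2 (-0.45), HARS2 (-0.39), AARS2 (-0.38), NARS2 (-0.30) and WARS2 (-0.26) fell as well. PARS2 (-0.20), TARS2 (-0.17), RARS2 (-0.029) and VARS2 (0.029) did not pass. The mitochondrial genome's share of reads was also lower in excess cysteine, and its part in these falls was not tested. In cysteine-free media, where 4 mitochondrial enzymes fell, that share was not lower. With libraries scaled to the reads on nuclear genes alone, the same number, 12 of 16, was called lower. The share and the excess medium changed together in these libraries, so their parts in the falls cannot be told apart.

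The mitochondrial class was where both altered media differed most. In the direct comparison of cysteine-free with excess media, 11 of 16 mitochondrial members were higher in cysteine-free media, MARS2 was lower and 4 did not pass (NARS2, PARS2, RARS2 and YARS2), with a median of 0.45. The largest differences were those of FARS2 (2.22-fold, adjusted p = 5.7e-08), IARS2 (0.88 ± 0.039, adjusted p = 1.5e-15) and LARS2 (0.78 ± 0.053, adjusted p = 4.7e-12). FARS2 had the fewest reads of all members, with 396 and 456 normalized counts in cysteine-free, 362, 329, 348 and 297 in complete and 181, 234, 153 and 207 in excess media. Of the cytosolic members 7 were higher in cysteine-free media, 5 were lower and 7 did not pass, with a median of 0.093. Those lower than in excess cysteine were NARS1, TARS1 (-0.30), MARS1 (-0.22), CARS1 (-0.21) and HARS1 (-0.15), and those higher included VARS1 (0.52), FARSB (0.50) and IARS1 (0.34). The smallest of these differences was fragile. The call of HARS1 was lost without either cysteine-free library (adjusted p = 0.010 and 0.10), without excess library 1 or 3, with all 3 groups in one fit (0.025), with the replicate block (0.012) and with no filter, and AARS1 (0.12) and FARSA (0.15), which were called higher, were also lost in several of the alternatives. Over all genes 48.0% were called in this comparison, 23.6% higher and 24.4% lower, and 66.8% of those at least as high as the lowest member.

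Read by amino acid, the cytosolic gene changed more to the positive side than its mitochondrial counterpart in 9 of 13 pairs in cysteine-free media, with a median difference of 0.59 on the log2 scale and a range from -0.46 to 1.44. In excess cysteine this held for 11 of 13 pairs, with a median of 1.05 and a range from -0.75 to 1.65. The widest pairs were MARS in cysteine-free media (1.44) and CARS (1.65) in excess cysteine. VARS and RARS were on the other side in both media, where VARS1 and RARS1 changed more to the negative side than VARS2 and RARS2 did. HARS and TARS had the opposite order in cysteine-free media alone. HARS1 and HARS2 start 107 bases apart on opposite strands and share 108 exon bases, and their changes in excess cysteine were -0.12 (not called) and -0.39.

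As a share of all reads on nuclear genes, the 19 cytosolic members together took 0.413% ± 0.00632 (SD, n = 4) in complete, 0.568% ± 0.0146 (SD, n = 2) in cysteine-free and 0.544% ± 0.00597 (SD, n = 4) in excess media. The 16 mitochondrial members took 0.0866% ± 0.00207, 0.0829% ± 0.00107 and 0.0585% ± 0.00104 in the same order. The lowest cytosolic share in an altered medium, 0.537%, lay above the highest in complete media, 0.419%. For the mitochondrial set the excess libraries ended at 0.0597%, under the lowest complete library at 0.0841%. The cysteine-free libraries, at 0.0821% and 0.0837%, lay just under that complete library as well. In bulk RNA, fewer cells with an mRNA and less of it per cell cannot be told apart.

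Sorted by enzyme class, which reflects separate folds of the catalytic domain, 7 of 10 class I cytosolic members rose in each medium (CARS1, EPRS1, IARS1, LARS1, MARS1, WARS1 and YARS1). EPRS1 is counted there for its glutamyl domain, although its prolyl domain is class II. Of the 9 class II cytosolic members 4 rose in cysteine-free media and 5 in excess cysteine, AARS1, GARS1, SARS1 and TARS1 in both. The 4 mitochondrial enzymes that fell in cysteine-free media, EARS2, LARS2, MARS2 and YARS2, were all class I, and 0 of the 7 class II mitochondrial enzymes were called there. This split was not tested and shifts with the fit. NARS2, of class II, was called lower with all 3 groups in one fit (adjusted p = 0.0086), with the replicate block (0.0022) and without the third complete library (0.0093), TARS2, also of class II, was called higher with the block and without that library, and the calls of LARS2 and YARS2 were lost without either cysteine-free library. In excess cysteine 7 of 9 class I and 5 of 7 class II mitochondrial enzymes fell.

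The multisynthetase complex, a cytosolic assembly of synthetases around 3 scaffold proteins, did not move as a block. Of its 10 members, EPRS1, IARS1, LARS1 and MARS1 rose in each medium. RARS1 and EEF1E1 fell in each, KARS1 and AIMP2 fell in excess cysteine, and QARS1 and AIMP1 passed in neither. EEF1E1, which ties MARS1 to the complex, had 1473 and 1384 in cysteine-free, 2035, 1792, 1906 and 2034 in complete and 1654, 1754, 1686 and 1746 in excess media. Its fall was larger in cysteine-free media (-0.44 ± 0.073, adjusted p = 0.000615) than in excess cysteine (-0.18 ± 0.052, adjusted p = 0.0071), and the direct comparison of those media gave -0.26 (adjusted p = 2.0e-04). The smaller of these falls is a fragile call, lost in 6 of the 8 fits that left out 1 library and under 5 of the other settings. The call of the larger fall was lost without either cysteine-free library (-0.49 and -0.40) and with no filter (adjusted p = 0.047). That of the direct difference was lost without the second cysteine-free library (-0.21) and with no filter (adjusted p = 0.015). EEF1E1 shares 18.8% of its exon bases with a read-through gene on the same strand that joins it to BLOC1S5, so its value is uncertain. The fall of AIMP2 (-0.21) was not called with equal totals (-0.10, adjusted p = 0.051) or with no filter (adjusted p = 0.013), and AIMP2 shares 29.1% of its exon bases with EIF2AK1 on the opposite strand.

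TARS3, the second threonyl enzyme, went against TARS1. It had 1215 and 1213 in cysteine-free, 1529, 1721, 1448 and 1623 in complete and 1139, 1034, 1077 and 1037 in excess media. The fall was 0.38 on the log2 scale in cysteine-free media (SE 0.078, adjusted p = 0.0029) and 0.56 in excess cysteine (SE 0.061, adjusted p = 6.05e-07), where TARS1 rose by 0.25 and by 0.55.

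Reads shared with overlapping genes limit a few of these values. Exons of 26 members share bases with another annotated gene. By the study's methods reads over several genes were discarded, which was not tested here. Where that held, a partner's reads in the shared bases would not be in a member's count. The strand setting of the counting is not given in the sources used here. Had such reads been kept, an antisense partner's reads could be counted with a member's. VARS2 shares 63.0% and SARS2 48.2% of their exon bases with another gene on the same strand. With the discarding their values rest on the remaining bases, and without it neither value can be told from its partner's. YARS2 shares 18.1% of its exon bases with ENSG00000286950 on the opposite strand. The mean of that partner went from 237 normalized counts in complete to 175 in cysteine-free and 176 in excess media. CARS1-AS1, antisense to CARS1, rose beside it, from 406 normalized counts in complete to 598 in cysteine-free and 752 in excess media (means). DDIT3, the stress transcription factor CHOP, shares 355 exon bases with MARS1 and went from 611 to 1195 and 2803. After the reads of 1 antisense partner each were taken off MARS1, CARS1, GARS1 and WARS1 (DDIT3, CARS1-AS1, GARS1-DT and ENSG00000258666, an alternative added after the data were seen), 11 and 12 cytosolic members were still called higher in cysteine-free and excess media. The difference of MARS1 between both altered media was then -0.086 (adjusted p = 0.041) and no longer called. Each partner's whole count was taken off, although only some of its bases are shared, so more can be removed than was shared. DDIT3 itself was higher in excess than in cysteine-free media. The lost call therefore cannot tell whether shared reads had a part in the MARS1 difference.

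Members with the promoter motif and without it changed as follows, and whether the motif had a part in these changes was not tested. Of the 6 cytosolic members with TGATGCAA, shown above, 5 rose in cysteine-free media and 6 in excess cysteine, with 0 lower in either and medians of 0.56 and 0.56. Of the 10 with a promoter at hand and no such motif, 4 rose and 2 fell in cysteine-free media (median 0.043), and 4 rose and 4 fell in excess cysteine (median -0.12). EPRS1, GARS1, SARS1 and WARS1 rose without it, although GARS1 held the looser form. YARS2, a mitochondrial member with the looser form, fell in both media. Of LARS1, VARS1 and YARS1, with no promoter at hand, LARS1 and YARS1 rose in both media and VARS1 fell in excess cysteine. Over all genes 7.39% were called higher and 8.51% lower in cysteine-free media, and 23.1% and 22.9% in excess cysteine. Of the 22 ATF4 response genes with a promoter here, 3 held the strict motif.

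The other genes of the tRNA charging route were read from a list of 28. In cysteine-free media 2 rose, 9 fell and 17 did not pass, with a median of -0.16, and in excess cysteine 6 rose, 16 fell and 6 did not pass, with a median of -0.28. The shares over all genes were 7.39% higher and 8.51% lower in cysteine-free media and 23.1% and 22.9% in excess cysteine, so the rises were near that background. XPOT, the exporter that carries mature tRNA out of the nucleus, rose in both, by 0.54 ± 0.049 and 1.12 ± 0.033. SEPSECS, which completes the selenocysteine on its tRNA, rose by 1.28 ± 0.23 and 0.89 ± 0.17. The falls were led by POP1, a subunit of the ribonuclease P complex that trims the 5′ end of tRNA, at -0.78 ± 0.066 and -1.71 ± 0.063. Its fellow subunit POP5 did not pass in cysteine-free media (-0.23, adjusted p = 0.026) and fell by 1.19 in excess cysteine. TUFM, which brings charged tRNA to the mitochondrial ribosome, fell by 0.25 and by 0.35, whereas the cytosolic factor EEF1A1 did not pass in cysteine-free media (0.11) and rose by 0.33 in excess cysteine. GATB, of the enzyme that makes mitochondrial glutaminyl-tRNA, fell by 0.94 in excess cysteine.

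A list of 28 genes known to respond to ATF4, with the synthetases left out, was chosen with earlier results of these data known. Of these, 28 rose in cysteine-free media, with a median of 1.06, and 28 in excess cysteine, with a median of 1.21. Over all genes 7.39% and 23.1% were called higher. The list could lean towards genes that rose, and both comparisons share the 4 complete libraries. The mRNA of ATF4 itself rose by 0.24 and 0.47. These medians exceed those of the cytosolic synthetases, whose largest rise was the 1.05 of WARS1.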

How the data were processed

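Poly(A) RNA of HEK293T cells was sequenced with a directional kit in 10 libraries. Alignment by the authors was to GRCh38 in STAR 2.7.10b. The authors counted reads per Ensembl gene and deposited 1 table of signal values, read counts divided by DESeq2 size factors. The Ensembl release is not given in the sources used here. All values were whole multiples of 1 read (tolerance 0.01), from which reads were recovered for depth, TPM (GENCODE 44 canonical transcripts) and count tests. Of 78894 gene IDs, 61463 were in GENCODE 44. GEO's labels gave the groups.

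Members and lists were chosen with earlier results of these data known. Values were tested as log2(normalized count + 1) with limma 3.58.1 (trend, 2-sided) on the 2 groups compared, over the 29045 genes with 10 or more in at least 3 libraries, called at a Benjamini-Hochberg adjusted p of 0.01. Fold changes are on that scale, and a test on simulated data preceded use. Values of every library are printed for CARS1, CARS2 and the 3 largest changes in each direction, and for other members picked after their values were seen. Single ratios used exact permutation tests. Alternatives were pseudocounts of 0.5 and 10, a minimum of 50, no filter, other scalings, 1 fit of all groups, a replicate block, edgeR 4.0.16, DESeq2 1.42.0, a threshold of 0.05 and leaving out each library. Replicates differed beyond sampling noise, with a chi-square per degree of freedom of 3.53 to 14.7 between libraries of a group. Promoters came from RefSeq.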

Additional observations from a re-analysis of the deposited data

Results flagged for a closer look

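In 6 of 78 groups of 4 libraries, 1 library stood apart from the other three by Dixon's 95% limit for a group of 4, where chance alone would give about 4. In excess cysteine, the first library had 4941 normalized counts of KARS1 against 5285 to 5334 in the others, and 8386 of WARS1 against 8971 to 9014. The second had 1197 of NARS2 against 1074 to 1083, and the third 2536 of VARS2 against 2289 to 2321. In complete media the third library had 11427 of LARS1 against 12170 to 12279, and 2653 of EARS2 against 3095 to 3179. None of the calls of KARS1, WARS1, NARS2, LARS1 or EARS2 between excess and complete media was lost when any 1 library was left out. Without the third complete library, NARS2, TARS2 and VARS2 passed in cysteine-free media, where they did not with it.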

How the results depend on the processing

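The precision is limited by the 2 cysteine-free libraries. Leaving out 1 library at a time, genes called between cysteine-free and complete media ranged from 978 (without the second cysteine-free library) to 6300 (without the third complete one), cytosolic members lower from 0 to 3, mitochondrial members higher from 0 to 2 and lower from 2 to 5. Where a fit kept 1 cysteine-free library, it was assumed to vary like the others. The mitochondrial median between cysteine-free and excess media ranged from 0.39 to 0.48.

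For cysteine-free against complete media, no filter gave 390 genes, 1 cytosolic member higher and 0 lower, and 0 mitochondrial members lower. A threshold of 0.05 gave 7987 genes, 4 cytosolic members lower and 3 mitochondrial members higher. Quantile normalization gave 1 cytosolic member lower. Mitochondrial members higher numbered 1 with a minimum of 50, both equal-total scalings, quantile normalization, all groups in 1 fit, edgeR and DESeq2. The same-numbered libraries did not deviate together (correlations of -0.028 to 0.039), so the numbers do not pair them. With the replicate block the genes called rose to 6518, the cytosolic median was 0.35, 2 mitochondrial members were higher and TARS1 was lost. NARS1 then turned to -0.031. For excess against complete media, the cytosolic median was 0.46 with equal totals and 0.43 with quantile normalization, the mitochondrial one -0.32 with equal totals. Between cysteine-free and excess media, no filter gave 6877 genes, 2 cytosolic members higher, 1 lower and 7 mitochondrial members higher. Equal totals gave 2 mitochondrial members lower, MARS2 and RARS2 (-0.22). The medians were then 0.011 (cytosolic) and 0.37 (mitochondrial), and the cytosolic median was -0.00059 with quantile normalization.

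Members that changed sign were near 0 and not called in the fit reported above. Some passed in other settings between cysteine-free and excess media. EPRS1 passed with nuclear totals, the replicate block and DESeq2, YARS1 with the block, and SARS1 with equal totals and quantile normalization. In cysteine-free media PARS2 turned to -0.026 with quantile normalization. In excess cysteine RARS2 turned to 0.076, 0.0088 and 0.0095, and AIMP1 to 0.096, 0.028 and 0.044, with equal totals, nuclear totals and quantile normalization. Between cysteine-free and excess media, quantile normalization turned EPRS1 to -0.021, GARS1 to -0.028, LARS1 to -0.00059 and YARS1 to -0.034, and equal totals turned GARS1 to -0.044, LARS1 to -0.00094, RARS1 to -0.031, NARS2 to -0.037 and AIMP2 to -0.019. Leaving out 1 library gave ranges through 0 for FARSB (-0.050 to 0.068), NARS1 (-0.0090 to 0.032), HARS2 (-0.031 to 0.24), PARS2 (-0.037 to 0.099) and SARS2 (-0.00045 to 0.11) in cysteine-free media, for RARS2 (-0.048 to 0.0065), VARS2 (-0.0052 to 0.066) and AIMP1 (-0.037 to 0.016) in excess cysteine, and for GARS1 (-0.027 to 0.10), SARS1 (-0.13 to 0.0040), NARS2 (-0.035 to 0.12) and YARS2 (-0.040 to 0.026) between them. The cause of these shifts was not tested.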
